A study of Mus musculus with 10 samples.

Results

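Lipid-storage genes that mark a fatty liver, and Cfd (adipsin, or complement factor D), were followed across 5 livers treated with MI-883 and 5 control livers. The genes are Plin2, Plin4, Plin5, Cidea, Cidec, G0s2, Cd36, Mogat1, Pparg and Cfd, 10 of the 16647 genes with counts. The storage genes were chosen by name as markers of steatosis, and Cfd was chosen from its strong fall in these same livers. Earlier results of these data were known when the members were chosen, so their levels in the 2 groups are a description and no evidence. All 10 had counts, and 9 of them reached the minimum of 60 counts summed over the livers, which 13219 genes of the series reached. G0s2, with 49 counts in all, did not, and was not tested.

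All mice were male and humanized for PXR, CAR, CYP3A4 and CYP3A7 (model 11585 of Taconic), so that both groups carried the human receptors in place of the mouse ones. They were 10 to 15 weeks old when a high-fat diet (HFD) began. After 8 weeks on HFD, with HFD continuing, 5 mice were gavaged with MI-883 (5 mg/kg) 3 times a week over 4 weeks, and 5 control mice received the vehicle of DMSO, PEG300 and corn oil. MI-883 acts on the human receptors as a combined agonist of CAR and antagonist of PXR. No group on a normal diet was analysed here, so that the level of these genes in a lean liver is not part of the comparison. Each library came from another animal. Levels are library-size-adjusted counts after TMM scaling (CPM), and gene coordinates are those of GRCm38. Between 23513665 and 36221514 reads per liver were counted on genes. Cyp2b10, the classical target of CAR, served as a check of the labels and lay between 17130 and 31072 counts in MI-883-treated livers and between 597 and 1511 in control livers.

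Fat in a hepatocyte is kept in lipid droplets, with a core of triglyceride and a surface coated with proteins. Perilipins shield that surface from lipases, CIDE proteins sit where droplets touch and let the larger droplet take up the lipid of the smaller one, and the nuclear receptor PPARγ, scarce in lean liver, drives many of these genes once a liver becomes fatty. Cfd is a serine protease that cleaves factor B in the alternative complement pathway. It is secreted mainly by adipocytes, where its gene is switched on with fat storage, and the name adipsin comes from there.

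RefSeq promoter windows, from 250 bases before to 50 after a start site, were used for 9 of the 10 genes, without Cidea (13 windows, GRCm38.p6). They were searched on both strands for the half-site of nuclear receptors, AGGTCA, and for its direct repeats with 1 base between the copies (DR1, AGGTCANAGGTCA, the form bound by PPAR with RXR) or 4 bases between them (DR4), allowing 2 mismatches in a repeat. They were also searched for TTGNNCAA (a C/EBP palindrome) and TATAAA. The DR1 letters occurred in 1 window each of Plin2, Cd36 and Mogat1, and in 3.86% of all 32851 windows. The 3 windows are printed with that of Cfd, which differed most between the groups among the 10 members. Capitals mark a DR1 match or an exact half-site. The DR1 match of Plin2 holds its half-site, and that of Cd36 lies apart from its half-site.
Cfd promoter, chr10:79890603-79890902, plus strand: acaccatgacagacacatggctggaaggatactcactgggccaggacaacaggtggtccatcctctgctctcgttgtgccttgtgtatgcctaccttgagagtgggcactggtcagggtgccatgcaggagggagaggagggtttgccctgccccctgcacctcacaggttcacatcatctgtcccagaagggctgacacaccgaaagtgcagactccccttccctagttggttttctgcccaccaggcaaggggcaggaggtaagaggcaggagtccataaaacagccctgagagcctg
Plin2 promoter, chr4:86670010-86670309, minus strand: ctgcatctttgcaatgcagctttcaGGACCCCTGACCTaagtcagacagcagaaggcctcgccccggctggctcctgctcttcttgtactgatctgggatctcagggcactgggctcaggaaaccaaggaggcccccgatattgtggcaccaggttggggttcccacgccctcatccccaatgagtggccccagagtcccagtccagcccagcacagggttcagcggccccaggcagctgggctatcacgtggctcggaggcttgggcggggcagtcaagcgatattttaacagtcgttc
Cd36 promoter, chr5:17835847-17836146, minus strand: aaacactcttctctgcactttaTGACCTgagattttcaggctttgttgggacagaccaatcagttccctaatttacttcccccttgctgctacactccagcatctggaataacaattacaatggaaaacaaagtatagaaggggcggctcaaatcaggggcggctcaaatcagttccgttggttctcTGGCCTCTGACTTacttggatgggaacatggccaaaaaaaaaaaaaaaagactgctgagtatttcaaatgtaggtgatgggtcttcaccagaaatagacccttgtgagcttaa
Mogat1 promoter, chr1:78510810-78511109, plus strand: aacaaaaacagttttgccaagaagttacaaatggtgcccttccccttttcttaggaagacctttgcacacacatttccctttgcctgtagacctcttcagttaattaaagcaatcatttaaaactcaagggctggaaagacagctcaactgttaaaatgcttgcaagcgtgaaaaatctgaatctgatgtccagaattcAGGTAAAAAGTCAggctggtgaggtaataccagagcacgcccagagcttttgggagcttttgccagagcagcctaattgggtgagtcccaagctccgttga

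The first base of the DR1 match lay 225 bases before the start site in Plin2, 63 before it in Cd36 and 51 before it in Mogat1. The Cd36 window surrounds a start site inside the gene, which reaches to position 17888959 on the minus strand. No window at that outer end of Cd36 was searched. The exact half-site was also in windows of Pparg and Plin5 (16.3% of all windows), the DR4 letters were in Plin5 (3.02%), TTGNNCAA was in Cidec (6.40%) and TATAAA in Pparg (13.6%). The window of Cfd held none of these letters, nor did those of Plin4 and G0s2. A match is a stretch of letters and not a site shown to be bound.

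Of the storage genes, none differed between the groups by the test across all genes, while Cfd was far lower in MI-883-treated livers. By edgeR's quasi-likelihood test with an adjusted P under 0.05 over 13219 genes, 1 of 9 tested members was called, against 1.03% of all tested genes, and 0.265% of all tested genes were called as lower. The Wald test of DESeq2 also called Cfd alone among the 9, against 3.50% of all genes. Groups without overlap were found in 1 member, again Cfd, and in 3.98% of all tested genes. Since Cfd was chosen for this contrast, these counts are given for orientation. The 8 tested storage genes differed by a median of -0.05 on the log2 scale, 5 of them lower and 3 higher, beside a median of 0.00451 over all tested genes.

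**Figure D1:**
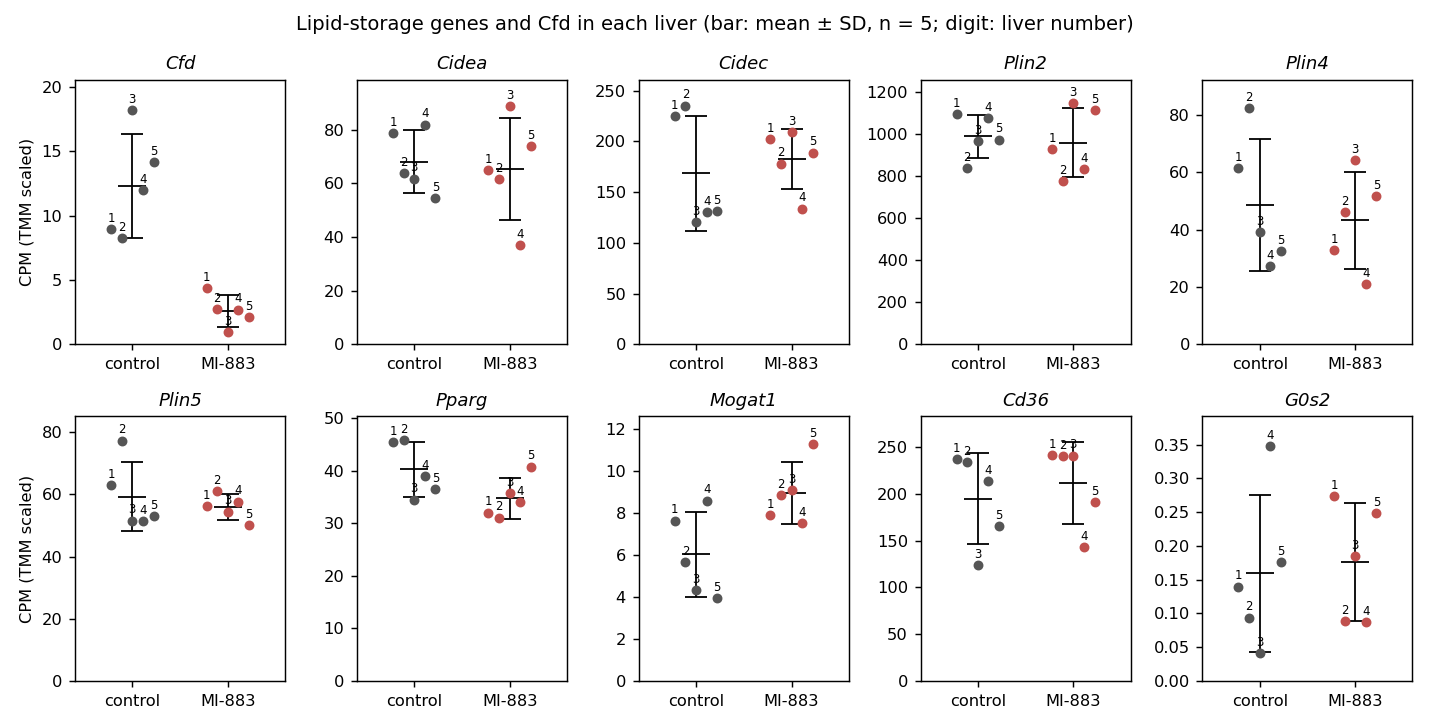
Expression of each of the 10 genes in every liver, in TMM-scaled CPM (vertical axes, each starting at 0), with control livers in grey and MI-883-treated livers in red. Bars give the mean ± SD of 5 livers and digits the liver number; Cfd separates the groups, and the points of the other 9 genes overlap.

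Cfd (Entrez gene 11537, chr10:79890853-79892655, plus strand) was at 8.97, 8.25, 18.2, 12.0 and 14.2 CPM in control livers 1 to 5. In MI-883-treated livers 1 to 5 it was at 4.38, 2.74, 0.962, 2.70 and 2.09 CPM. The highest treated liver was thus below the lowest control liver, and MI-883-treated liver 3 was lowest of all. The mean was 12.3 ± 4.06 CPM in the control group and 2.57 ± 1.24 CPM in the treated one (SD, n = 5), a 4.78-fold lower mean and a log2 fold change of -2.25 (SE 0.316). No other of the 13219 tested genes had a lower log2 fold change. The values rest on 264 to 445 counts per control liver and on 26 to 128 counts per treated liver. A minimum of 60 counts in every liver, another reading of the filter in the study's methods, would leave Cfd out of the test because of the 2 treated livers below it.

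Perilipins were represented by the ubiquitous Plin2, the main droplet coat of hepatocytes, by Plin5, which couples droplets to mitochondria in tissues that burn fat, and by Plin4, which covers nascent droplets mainly in adipocytes. Plin2 (Entrez gene 11520, chr4:86626910-86670217, minus strand) was at 1097, 839.8, 968, 1077 and 974 CPM in control livers 1 to 5 and at 931, 779, 1148, 833 and 1114 CPM in treated livers 1 to 5. The treated livers spread beyond the control livers on both sides. The means of 991 ± 103 and 961 ± 165 CPM gave a log2 fold change of -0.04 (SE 0.120). By RT-qPCR in a larger set of male livers from the same high-fat diet study, the paper reports significantly lower Plin2 mRNA after MI-883.

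Plin5 (Entrez gene 66968, chr17:56111597-56117606, minus strand) was at 63.0, 77.3, 51.5, 51.5 and 53.0 CPM in control livers 1 to 5. It was at 56.3, 61.1, 54.4, 57.7 and 50.1 CPM in treated livers 1 to 5. Control livers 1 and 2 lay above every treated liver, whereas control livers 3 to 5 lay within the treated range, and the log2 fold change was -0.08 (SE 0.111). Plin4, its neighbour (Entrez gene 57435, chr17:56100587-56109948, minus strand), was at 61.5, 82.5, 39.1, 27.2 and 32.6 CPM in control and at 32.8, 46.2, 64.3, 21.0 and 51.8 CPM in treated livers. It was the most variable tested storage gene, with a coefficient of variation of 47.4% in control and 38.9% in treated livers, and its log2 fold change of -0.17 had an SE of 0.320. Control livers 1 and 2 were again high, and treated liver 4 was lowest. Without control livers 1 and 2, chosen after seeing the data, the log2 fold change turned positive in both genes, at 0.39 for Plin4 and 0.10 for Plin5.

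The CIDE genes were well expressed. Cidec, which is nearly silent in lean liver and promotes large droplets, and its relative Cidea, a gene of brown fat that appears in steatotic liver, did not part the groups. Cidec (Entrez gene 14311, chr6:113424634-113435760, minus strand) was at 225, 235, 120.2, 131 and 131 CPM in control livers 1 to 5 and at 202, 178, 209.6, 134 and 189 CPM in treated livers 1 to 5. The control livers fell into a high pair (1 and 2) and a low trio, and all 5 treated livers lay between them. Its log2 fold change was 0.11 (SE 0.196), and without control livers 1 and 2, the high pair, which were left out after seeing the data, it was 0.52. Leaving out the highest control livers raises this value by construction.

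Cidea (Entrez gene 12683, chr18:67343564-67367794, plus strand) was at 78.6, 63.8, 61.8, 81.8 and 54.4 CPM in control livers and at 64.9, 61.4, 88.7, 36.9 and 74.0 CPM in treated livers. Both the highest and the lowest liver were treated ones, numbers 3 and 4, and the log2 fold change was -0.06 (SE 0.187). G0s2, an inhibitor of the lipase ATGL (Entrez gene 14373, chr1:193272160-193273188, minus strand, within Lamb3 on the opposite strand), had 5, 3, 1, 12 and 4 counts in control livers and 8, 2, 5, 2 and 7 counts in treated livers. It was below the count minimum, and no test of it is given.

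Cd36, the fatty acid translocase that takes up fatty acids (Entrez gene 12491, chr5:17781690-17888959, minus strand), was at 237, 234, 124, 214 and 166 CPM in control livers and at 241, 240.4, 241, 143 and 191 CPM in treated livers. Each group had a low liver, control 3 and treated 4, and the log2 fold change was 0.12 (SE 0.184). Mogat1, which joins a fatty acid to monoacylglycerol and is raised in steatosis (Entrez gene 68393, chr1:78511060-78606964, plus strand), was at 7.63, 5.66, 4.33, 8.57 and 3.95 CPM in control livers and at 7.90, 8.85, 9.07, 7.48 and 11.3 CPM in treated livers. Apart from Cfd it differed most, with a log2 fold change of 0.55 (SE 0.202), but control livers 1 and 4 overlapped with the treated ones and the call was not reached. Of its exon bases, 12.8% are shared with genes on the opposite strand, and the library kit was directional, but the strand setting of the counting is not given in the sources used here.

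Pparg (Entrez gene 19016, chr6:115360879-115490404, plus strand) encodes the receptor above these genes. It was at 45.4, 45.9, 34.5, 39.0 and 36.5 CPM in control livers and at 32.0, 31.1, 35.8, 34.1 and 40.8 CPM in treated livers. Control livers 1 and 2 were above all others, the rest overlapped, and the log2 fold change was -0.21 (SE 0.099).

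Relative to exon length, the order of levels in control livers began with Plin2 at 282 ± 29.2 CPM per kilobase. It was followed by Cidec (90.8 ± 30.5), Cidea (61.1 ± 10.5), Cd36 (54.3 ± 13.6) and Plin5 (28.4 ± 5.35 CPM per kilobase). Then came Pparg (13.6 ± 1.75), Cfd (13.3 ± 4.40), Plin4 (8.41 ± 3.99), Mogat1 (3.87 ± 1.30) and G0s2 (0.183 ± 0.134 CPM per kilobase). The ranges of neighbours in this order overlapped in control livers, except between Plin2 and Cidec, Plin5 and Pparg, and Mogat1 and G0s2. In treated livers Cfd, at 2.79 ± 1.34 CPM per kilobase, stood below Mogat1 (5.72 ± 0.946), and their ranges did not overlap.

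**Figure D2:**
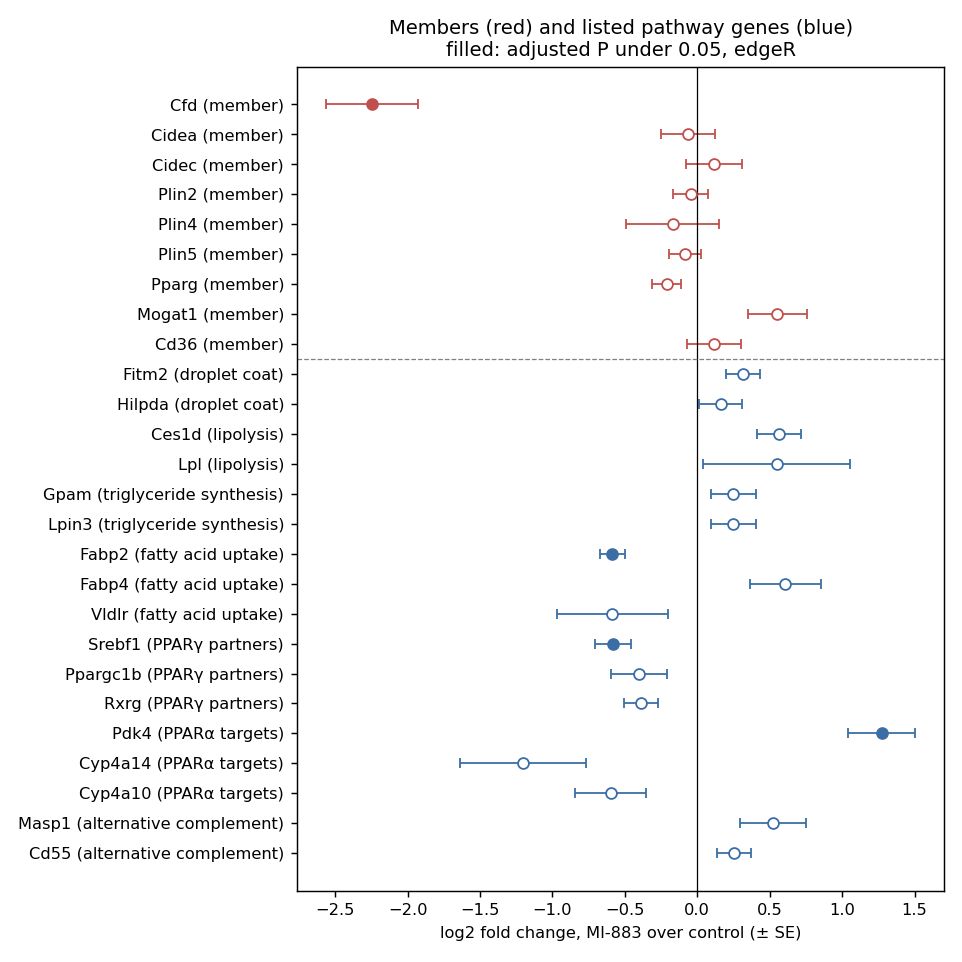
Log2 fold change of MI-883-treated over control livers (horizontal axis) with its standard error, for the 9 tested members in red and the listed genes of related pathways in blue, 5 livers per group. Filled points have an adjusted P under 0.05; these are Cfd, Fabp2 and Srebf1, which were lower, and Pdk4, which was higher.

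Other genes of fat handling were examined in 7 lists, written with earlier results of these data known. Of these lists 4 held no gene past the test and 3 held 1 each. Thus 3 of 99 listed genes were called by edgeR, beside 1.03% of all tested genes. None of the 10 tested droplet coat genes was called (median log2 fold change of the list -0.00452). Here Fitm2, which helps droplets bud from the endoplasmic reticulum, had the largest difference at 0.32 (SE 0.118), followed by Hilpda, an inhibitor of ATGL, at 0.16 (SE 0.149). None of the 10 genes of lipolysis was called by edgeR (median 0.10), where Ces1d, a triglyceride hydrolase of the hepatocyte, differed by 0.56 (SE 0.153, adjusted P = 0.110 in edgeR and 0.0124 in DESeq2) and Lpl, lipoprotein lipase, by 0.55 (SE 0.508). None of the 14 genes of triglyceride synthesis was called (median 0.01), where Gpam, the first acyltransferase of the pathway, differed by 0.25 (SE 0.153) and Lpin3, a phosphatidate phosphatase, by 0.25 (SE 0.155). None of the 10 genes of the alternative complement pathway and its regulators, in which Cfd acts, was called (median -0.06, 2 higher and 8 lower). The 2 higher ones had the largest differences at a mean of at least 1 CPM. Masp1, whose gene yields proteases of the lectin pathway, differed by 0.52 (SE 0.228) and Cd55, which speeds the decay of C3 convertase, by 0.25 (SE 0.119).

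Of 16 genes of fatty acid uptake and binding, 1 was lower and none higher by edgeR (median -0.01), beside 0.265% and 0.764% of all tested genes. Fabp2, the intestinal type of fatty acid binding protein, was at 245, 226, 247, 249 and 223 CPM in control livers and at 182, 166, 161, 152 and 133 CPM in treated livers. The groups did not overlap, and it fell by 0.59 on the log2 scale (SE 0.084, adjusted P = 0.00398 in edgeR). Fabp4, which fat cells and macrophages express, differed by 0.61 (SE 0.244) and Vldlr, a receptor for lipoprotein remnants, by -0.59 (SE 0.385), without passing the test.

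Of 19 partners of PPARγ and regulators of fat synthesis, 1 was lower and none higher (median -0.08). Srebf1, the gene of SREBP-1 that drives fatty acid synthesis, was at 440.5, 385, 611, 488 and 505 CPM in control livers and at 276, 308, 384, 355 and 299 CPM in treated livers. The lowest control liver and the highest treated liver nearly met, and the log2 fold change was -0.58 (SE 0.125, adjusted P = 0.0470 in edgeR). This call stood close to the threshold, as it was kept in 3 of 10 fits that each left out 1 liver (adjusted P between 0.0353 and 0.130). It was lost without control liver 3, 4 or 5 and without treated liver 1, 2, 4 or 5, and it was also lost with scaling by total counts (adjusted P = 0.0662). Ppargc1b, a coactivator, and Rxrg, a partner receptor, differed by -0.40 (SE 0.193) and -0.39 (SE 0.117) without passing the test.

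Of 18 tested targets of PPARα, the receptor of the fasting liver, 1 was higher and none lower (median -0.01). Pdk4, the kinase that turns off pyruvate dehydrogenase, was at 16.2, 15.03, 6.13, 18.5 and 12.7 CPM in control livers and at 38.0, 26.6, 38.3, 25.3 and 38.4 CPM in treated livers. The groups did not overlap, and it rose by 1.27 on the log2 scale (SE 0.23, adjusted P = 0.0198 in edgeR). Without control liver 5 the adjusted P was 0.0623, and without treated liver 5 it was 0.0624. Cyp4a14 and Cyp4a10, fatty acid hydroxylases, differed by -1.20 (SE 0.433) and -0.60 (SE 0.245), in the opposite direction to Pdk4, without passing the test. DESeq2 called 6 of the 99 listed genes, beside 3.50% of all tested genes. These were the 3 called by edgeR together with Ces1d, Fabp1 (log2 fold change -0.29, adjusted P = 0.0177 in DESeq2) and Cebpa (-0.30, adjusted P = 0.0151 in DESeq2). Fabp1 and Cebpa are named here after their values were seen.

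Cell markers were read beside the fall of Cfd, as its transcript comes mainly from fat cells elsewhere. Of 9 adipocyte markers 8 were listed in the counts. Plin1 and Ucp1 were at 3 counts or fewer in every liver, Adipoq reached at most 4 counts and Retn at most 9, and these 4 were not tested. Cfd, with 264 to 445 counts in control and 26 to 128 in treated livers, was above these 4 in the same libraries. Over all livers Fabp4 had 278 to 1280 counts, Lipe 599 to 1187 and Aqp7 3 to 165. Which cells the Cfd transcript came from was not tested. The summed level of the 8 markers, mostly Lipe and Fabp4, lay between 42.3 and 61.5 CPM in control and between 53.5 and 77.7 CPM in treated livers. Of the 4 tested markers 2 were higher and 2 lower (median log2 fold change 0.07), none called by edgeR. Fabp4 differed by 0.61, Aqp7, a glycerol channel, by 0.21 (SE 0.771) and Lipe, hormone-sensitive lipase, by -0.08 (SE 0.127). Adrb3, the adrenergic receptor of fat cells, had 65 to 118 counts in the control group and 30 to 65 in the treated one. In CPM its groups did not overlap (2.43 to 3.92 in control and 1.11 to 2.30 in treated livers), as in 3.98% of all tested genes. The log2 fold change of Adrb3 was -0.76 (SE 0.208, adjusted P = 0.111 in edgeR and 0.0214 in DESeq2).

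Hepatocyte markers were abundant, as Alb was at 56582 ± 4446 CPM in the control group and at 50515 ± 3589 CPM in the treated one (SD, n = 5). All 8 hepatocyte markers had a negative log2 fold change (median -0.26), none past the test, and their sum lay between 77547 and 89715 CPM in control and between 66925 and 78759 CPM in treated livers. Among 9 macrophage markers 7 were higher (median 0.06 on the log2 scale, summed level 211 to 333 CPM in control and 194 to 415 CPM in treated livers). Among 8 endothelial markers 7 were higher (median 0.24, summed 139 to 189 and 163 to 207 CPM), and among 8 stellate cell markers 7 were higher (median 0.20, summed 233 to 378 and 272 to 454 CPM). None of these was called by edgeR, and DESeq2 called 1 endothelial marker, Cdh5 (log2 fold change 0.53, adjusted P = 0.0223). No marker of these 3 lists was at 0 in every liver, and their part in the values of the members was not tested. Fewer cells of a type and less RNA per cell cannot be told apart in bulk liver RNA.

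Whether the genes moved together was asked within the groups, so that the difference in Cfd between groups did not enter. Each liver's log2 CPM was taken as its deviation from the group mean, and Pearson's r was computed over the 10 livers for each of 45 pairs, with an exact two-sided permutation test over all 14400 orders of livers within groups and adjustment over the 45 pairs. No pair passed an adjusted P of 0.05 (lowest adjusted P = 0.211, exact permutation). At an unadjusted P under 0.05 there were 7 pairs, 5 positive and 2 negative. By Spearman's rho no pair passed either (lowest adjusted P = 0.0688, exact permutation), and 4 pairs had an unadjusted P under 0.05. The lowest of these belonged to Cidea and Mogat1, also named after its value was seen, with a rho of 0.84 (exact permutation P = 0.00153) and an r of 0.65 (exact permutation P = 0.0141).

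As a description, the 8 tested storage genes had mostly positive correlations with each other and negative ones with Cfd. Of their 28 pairs 26 had a positive r (median 0.50, from -0.57 to 0.85), beside a median of -0.00227 over all pairs of tested genes. An r of at least 0.7 was found in 3 of 28 pairs, or 10.7%, against 3.73% of all pairs. All 3 held Cidec or Cidea, which had an r of at least 0.7 with 6.85% and 5.36% of all tested genes. Over all 45 pairs there were 3 pairs with such an r, or 6.67%. This number moved with the processing, to 9 with scaling by total counts. It was between 2 (without control liver 1) and 8 (without control liver 4) when 1 liver was left out. The share of all pairs was computed only with TMM scaling and all livers, so these other numbers have no share beside them. These genes come from the same 10 libraries, and genes are not independent replicates. With Cfd, all 8 had a negative r, between -0.66 and -0.29 with a median of -0.47. The 9 pairs with G0s2, which rest on few counts, lay between -0.36 and 0.59.

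**Figure D3:**
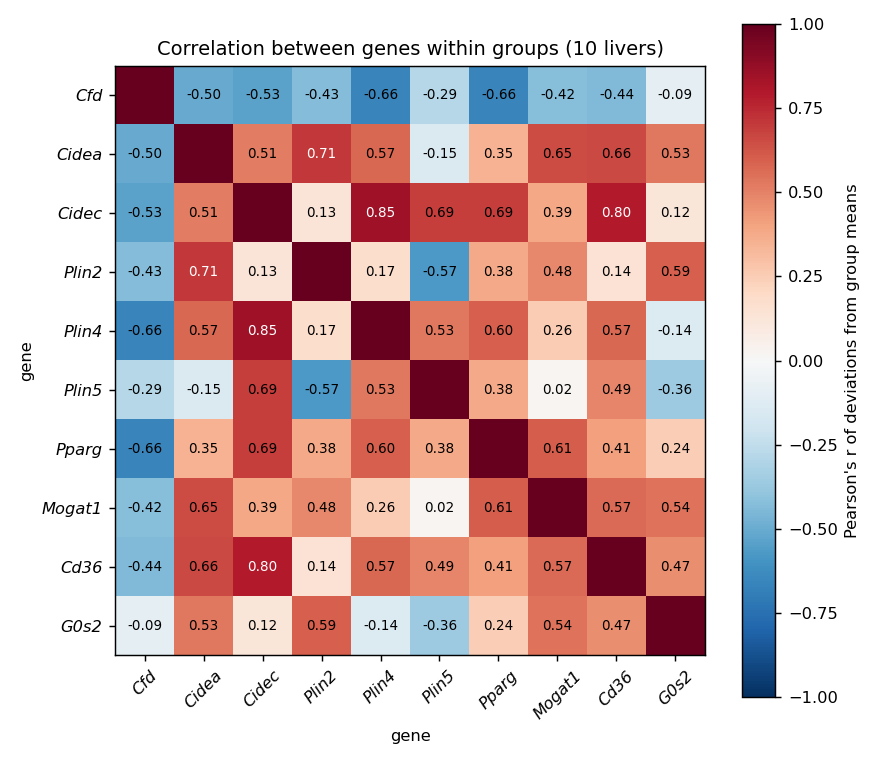
Pearson's r between each pair of the 10 genes, from log2 CPM after subtracting the group mean, over 10 livers (colour scale from -1 in blue to 1 in red). The block of storage genes is mostly red, with Cidec and Plin4 at 0.85, and the row of Cfd is blue, from -0.66 with Pparg to -0.09 with G0s2.

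Cidec and Plin4 had the highest r, 0.85 (exact permutation P = 0.00979, adjusted P = 0.211; rho 0.85, P = 0.00986, adjusted P = 0.148). Without control livers 1 and 2, the livers farthest from the median of Cidec, r was 0.71. Cidec and Cd36 followed with an r of 0.80 (exact permutation P = 0.0106, adjusted P = 0.211; rho 0.90, P = 0.00410, adjusted P = 0.0922), and without the same livers r was 0.77. Among treated livers, number 4 was lowest and number 3 highest in both Cidec and Plin4.

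Cidea and Plin2 had an r of 0.71 (exact permutation P = 0.0375, adjusted P = 0.267; rho 0.67, P = 0.0522, adjusted P = 0.378), and without treated livers 3 and 4 r was 0.65. Cidec correlated with Pparg at 0.69 (exact permutation P = 0.0716, adjusted P = 0.267; rho 0.59, P = 0.106, adjusted P = 0.390) and with Plin5 at 0.69 (exact permutation P = 0.0719, adjusted P = 0.267; rho 0.54, P = 0.169, adjusted P = 0.390). Both of the last rested on control livers 1 and 2, as r was 0.18 for Pparg and -0.33 for Plin5 without them. The lowest r among the storage genes, named after its value was seen, joined the perilipins Plin2 and Plin5 at -0.57 (exact permutation P = 0.0397, adjusted P = 0.267; rho -0.56, P = 0.0619, adjusted P = 0.378). The pair stayed at -0.60 without treated livers 2 and 3.

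Cfd had its lowest r with Pparg, at -0.66 (exact permutation P = 0.0440, adjusted P = 0.267; rho -0.79, P = 0.0158, adjusted P = 0.178). Without treated livers 1 and 3, which were farthest from the median of Cfd, r was -0.93. Control livers 1 and 2 had the lowest Cfd and the highest Pparg of their group, and control liver 3 had the highest Cfd and the lowest Pparg. The highest r of Cfd was that with G0s2, at -0.09 (exact permutation P = 0.806, adjusted P = 0.824; rho -0.04, P = 0.920, adjusted P = 0.920), and it was -0.34 without treated livers 1 and 3.

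**Figure D4:**
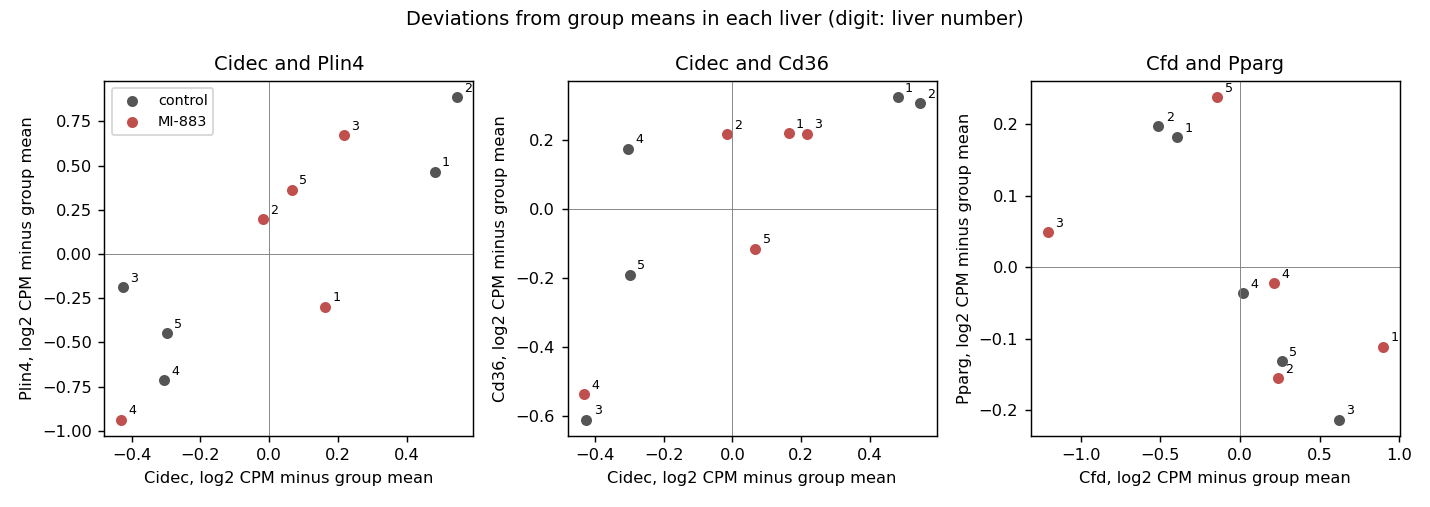
Deviation from the group mean in log2 CPM for Cidec and Plin4, Cidec and Cd36, and Cfd and Pparg (both axes), with control livers in grey, MI-883-treated livers in red and the liver number beside each point. The first 2 pairs rise together (r 0.85 and 0.80), and Cfd and Pparg run in opposite directions (r -0.66).

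By liver, a few animals stood out in several genes at once. On the log2 scale, control liver 2 was above its group mean by 0.55 in Cidec, 0.89 in Plin4 and 0.40 in Plin5. It was also above that mean by 0.31 in Cd36 and 0.20 in Pparg. It deviated by -0.51 in Cfd, -0.34 in G0s2, -0.23 in Plin2, -0.08 in Cidea and -0.03 in Mogat1. Its Plin2 was the lowest of the control livers. Treated liver 4 was lowest of its group in Cidea, Cidec, Plin4 and Cd36, with deviations of -0.76, -0.43, -0.94 and -0.54, while its Cfd deviated by 0.21. Treated liver 3, with the lowest Cfd (a deviation of -1.21), had the highest Cidea, Cidec, Plin2 and Plin4 of its group. Without control livers 1 and 2, 22 of the 28 pairs of storage genes had a positive r (median 0.36), and the median r of Cfd with the other 9 members was -0.36, against -0.44 with all livers and -0.64 without treated liver 1.

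**Figure D5:**
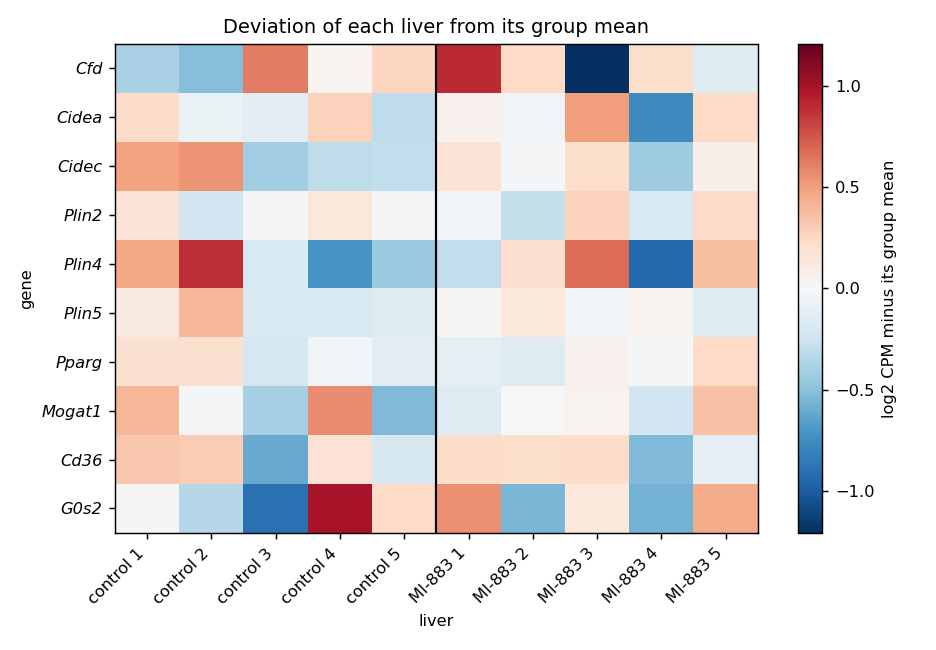
Deviation of each liver from its group mean in log2 CPM (colour scale, blue below and red above) for the 10 genes in rows and the 10 livers in columns, control livers left of the line. Control livers 1 and 2 are red in Cidec, Plin4, Plin5, Pparg and Cd36 and blue in Cfd. Control liver 2 is also blue in Plin2 and G0s2. MI-883-treated liver 4 is blue in Cidea, Cidec, Plin4 and Cd36.

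Genes that are not members but ran most like them within groups are named as a description over 10 livers. Cfd was most like Tmem199 (r = 0.93), Rps23rg1 (0.93), Pdia5 (0.93), Bmyc (0.92) and Cacnb4 (0.92). Of these 5 none was called between the groups, and their log2 fold changes lay between -0.25 and 0.10, beside -2.25 for Cfd. Cidec was most like Oxct1 (r = 0.97), Ccdc3 (0.97), Sdcbp2 (0.96), Ccdc120 (0.96) and Morc4 (0.96). Plin2 was most like Tor3a (r = 0.93), Rragc (0.92), Armc9 (0.91), Wdr76 (0.90) and Nmnat1 (0.90). They were picked as the highest of all tested genes with a mean of at least 1 CPM, over only 10 livers. Their height is thus no evidence of a link. The share of genes at such a height was not computed. At the lower limit of 0.7, 2.57% of all tested genes reached that r with Cfd, 6.85% with Cidec and 2.57% with Plin2.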

How the data were processed

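Liver RNA of 5 control and 5 MI-883-treated mice was sequenced from directional libraries in pairs of reads, which the authors aligned with STAR to the mouse genome (mm10) and counted on genes with featureCounts. fastp 0.23.0 is named in the submitters' processing notes, and the versions of STAR and featureCounts, the annotation and the strand setting of the counting are not given in the sources used here. The deposited values are raw counts per gene. Members and gene lists were chosen with earlier results of these data known.

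Counts of 16644 of 16647 genes were matched to RefSeq symbols of GRCm38, and exon lengths were taken from GENCODE vM21. Genes with at least 60 counts over 10 livers were tested with edgeR 4.0.16 in R 4.3.3 (TMM, quasi-likelihood test, Benjamini-Hochberg). The Wald test of DESeq2 1.42.0, other scalings and filters, a replicate block and leaving out livers were alternatives. Log2 CPM for correlations used a prior count of 2. Group tests were judged against the spread between livers, and the P-values of correlations came from permuting livers within groups. As each library came from another animal, spread between animals and between libraries cannot be separated. The named genes are all members, and per list each gene called and the 2 others with the largest log2 fold change at a mean of at least 1 CPM. For Cfd, Cidec and Plin2 the 5 most alike genes were added, with the 5 pairs of largest r, and the highest and lowest of Cfd. The scripts were tested on simulated data.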

Additional observations from a re-analysis of the deposited data

Results flagged for a closer look

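Among 30 sets of 5 livers (the 10 members and the summed levels of 5 marker lists, in each group), 1 liver lay far from the rest of its group by Dixon's criterion, where chance gives about 1 in 20. In control liver 1 the endothelial markers summed to 139 CPM, against 178 CPM in the next lowest control liver. No liver stood apart in this way for any of the 10 members.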

How the results depend on the processing

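Cfd was chosen for its fall in these livers, so its values over settings describe the processing and are no independent support. With a minimum of 60 counts in every sample Cfd was not tested, and 0 members were called. In the 10 fits that left out 1 liver, 1 member was called each time, Cfd, with an adjusted P between 0.00142 and 0.0155 in edgeR, and its log2 fold change lay between -2.54 and -2.03 over 17 alternatives. DESeq2 called 6 listed pathway genes in place of 3, and leaving out 1 liver gave between 1 and 3. Without control liver 5 or treated liver 5, Fabp2 alone was left. No pair of members passed the adjusted threshold in any setting (0 pairs), and the median r of the 45 pairs lay between 0.25 and 0.62. The median r of Cfd with the other 9 members, -0.44 with all livers, lay between -0.71 and -0.36. Pairs with an r of at least 0.7, 3 with all livers, numbered between 2 and 14. Livers with the same number did not deviate together in every pair (r from -0.12 to 0.36, and none correlated best with its own number). With the replicate number as a block, 1 member, 2 listed genes and 0 pairs were called, the median r of Cfd was -0.71 and 14 pairs had an r of at least 0.7. The block also takes out a mean per replicate number, so fewer free values are left and a high r arises more easily. The share over all pairs of tested genes was computed for the main setting only. The numbers of pairs in other settings are thus no measure of stronger or weaker togetherness. Signs turned in at least 1 alternative for Cidea, Plin2, Plin4, Plin5 and Cd36, none of them called. Without control livers 1 and 2, chosen after seeing the data, the log2 fold change of Cidec moved to 0.52 and that of Plin4 to 0.39. G0s2 was limited by its 49 counts.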
